A study of Mus musculus with 16 samples.

Results

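The acute phase genes described here are Orm1, Orm2, Orm3, Serpina3n, Serpina3k, Saa3, Hp, Lcn2, Alb and Mug1. They are 10 of the 19096 named genes on the arrays and of the 15467 that were tested. They were selected on their measured levels, because several of them were lower in knockout samples of both tissues, so their knockout differences are given below as a description, with no test. Each has 1 named probe, and all 10 passed the filter on dim probes, Serpina3k only through the white controls, in which it was brighter.

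The arrays measured white and brown adipose tissue of male mice. The control mice were wild-type, per the series' design text. The other mice carried a knockout of the glucocorticoid receptor, the transcription factor encoded by Nr3c1, confined by design to adipose tissue. Every group held 4 arrays. Within a genotype the white and brown arrays lay on different slides, so tissue and slide cannot be told apart there. The labels name neither the Cre driver that would set which cells lost the receptor nor the deleted exon, the strain or the age, and they give no treatment. Total RNA was prepared from tissue, so fewer cells of a type and less RNA per cell cannot be told apart.

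The level of a gene is given throughout as log2 intensity relative to the 75th percentile of its array, so a level of 0 equals that percentile and a difference of 1 is a doubling. Arrays of a group that differed by less than the scanner software's own error were averaged and counted as 1 sample. This left 2 white control samples (arrays 1 and 4, and arrays 2 and 3) and 2 white knockout samples (array 1, and arrays 2, 3 and 4). Brown fat gave 3 control samples (array 1, arrays 2 and 3, and array 4) and 2 knockout samples (array 1, and arrays 2, 3 and 4). Errors marked SD or SE refer to these samples. The design text calls the 4 arrays of a group biological replicates, but the labels name no animals, so the spread between samples may be in part technical.

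Arrays had 67.3% to 77.0% of their spots well above background. The brightest probe of the targeted gene, Nr3c1, ranged over 2.01 to 2.43 in white controls, 1.23 to 1.5 in white knockouts, 2.29 to 2.63 in brown controls and 1.5 to 1.76 in brown knockouts. A dimmer Nr3c1 probe overlapped in white fat, at -2.68 to -2.34 in controls and -3.01 to -2.29 in knockouts, but not in brown fat. The remaining Nr3c1 probes lay lower in the knockout without overlap in both tissues. The 10 adipocyte markers summed to 10.8 to 11.2 on white control, 9.99 to 10.98 on white knockout, 10.4 to 10.9 on brown control and 10.2 to 10.6 on brown knockout arrays, and 10 of 10 had lower means in the knockout of each tissue (median -0.79 in white and -0.26 in brown fat). In brown fat this was so for 6 of 10 without brown control array 4. Over all genes, with every array, 52.6% had lower means in the white and 60.1% in the brown knockout. The 8 brown adipocyte markers summed to 8.60 to 10.2 in brown and to 4.53 to 5.63 in white fat. The 8 skeletal muscle markers summed to 11.01 to 11.5 on brown control and 10.1 to 10.9 on brown knockout arrays, with 8 of 8 lower in the knockout (median -0.79), and to 1.438 to 1.477 on white control and 1.73 to 3.07 on white knockout arrays. The 6 exocrine pancreas markers summed to 2.35 to 2.82 on white control and 0.22 to 1.61 on white knockout arrays, and to 1.56 to 2.24 and 0.897 to 1.482 on brown arrays. T, B and NK cell markers summed to 4.16 to 6.16 on brown knockout arrays against -0.19 to 3.92 on brown control arrays, and to 2.49 to 6.86 against 1.58 to 4.43 in white fat. Markers of mesothelium, which covers abdominal fat, summed to 1.04 to 4.83 on white knockout and to 4.08 to 5.10 on white control arrays. The part of these other cells in the differences below was not tested. Brown control array 4 stood apart in liver-type transcripts, and not in these alone. Among brown control arrays it had the highest brown adipocyte sum (10.2 against 8.60 to 9.29). Its T, B and NK cell sum (-0.19 against 0.74 to 3.92) and mesothelial sum (4.32 against 5.55 to 6.66) were the lowest. Its adipocyte sum, at 10.7, lay within the 10.4 to 10.8 of the others. The members' brown knockout and control tissue differences, and the gene lists in brown fat, are therefore also given without this array.

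Acute phase proteins are plasma proteins whose synthesis changes during infection, injury or stress, and hepatocytes make most of them. Interleukin 6 acting through STAT3, interleukin 1 acting through NF-kB, and C/EBP factors drive their genes, and glucocorticoids act together with these cytokines on several of them. Fat also makes part of the set: haptoglobin, the orosomucoids, serum amyloid A3 and lipocalin 2 are known products of adipose tissue, whereas albumin and murinoglobulin are best known as products of the liver.

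Promoters are shown because these factors, and the glucocorticoid receptor itself, are known regulators of several of the genes. The RefSeq table of assembly GRCm38.p6 held 7 of the 10 promoters, those of Orm2, Orm3, Serpina3n, Saa3, Lcn2, Alb and Mug1. Windows of 300 bases around each start were searched on both strands for TTGCNNAA (C/EBP), TTCNNNGAA (STAT), the NF-kB motif (GGG and TTTCC around 2 free bases) and a palindromic glucocorticoid receptor motif. The C/EBP motif was in 5 of 7 windows, against 10.8% of all 32851 windows in the table. It lay at bases -120 to -113 in Orm2, -121 to -114 in Orm3, -99 to -92 in Saa3, -216 to -209 in Lcn2 and -94 to -87 in Alb, counted from the transcription start. Serpina3n held the NF-kB motif at -171 to -162 (1.63% of all windows) and the glucocorticoid receptor motif at -78 to -66 (0.475% of all windows). The STAT motif was in 0 of 7 windows, against 8.30% of all. No motif overlapped another, and Mug1 held none of the 4. The 250 bases before each start follow, 5′ to 3′ on the strand of the gene, for the 6 promoters with a match, which is in capitals.
Orm2, chr4:63362199-63362448, plus strand: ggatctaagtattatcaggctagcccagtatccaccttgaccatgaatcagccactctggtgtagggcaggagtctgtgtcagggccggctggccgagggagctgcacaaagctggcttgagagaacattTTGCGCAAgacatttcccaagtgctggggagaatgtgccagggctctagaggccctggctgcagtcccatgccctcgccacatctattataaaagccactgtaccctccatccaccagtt
Orm3, chr4:63355908-63356157, plus strand: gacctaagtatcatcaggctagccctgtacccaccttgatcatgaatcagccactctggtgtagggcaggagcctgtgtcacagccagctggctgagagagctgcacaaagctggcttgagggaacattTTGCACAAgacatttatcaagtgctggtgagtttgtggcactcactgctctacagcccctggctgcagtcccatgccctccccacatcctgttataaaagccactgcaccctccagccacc
Serpina3n, chr12:104406458-104406707, plus strand: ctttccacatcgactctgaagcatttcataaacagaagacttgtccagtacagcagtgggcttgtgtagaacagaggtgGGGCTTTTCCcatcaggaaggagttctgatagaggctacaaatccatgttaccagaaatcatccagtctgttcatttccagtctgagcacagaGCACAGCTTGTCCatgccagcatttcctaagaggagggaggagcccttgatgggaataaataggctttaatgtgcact
Saa3, chr7:46715677-46715926, minus strand: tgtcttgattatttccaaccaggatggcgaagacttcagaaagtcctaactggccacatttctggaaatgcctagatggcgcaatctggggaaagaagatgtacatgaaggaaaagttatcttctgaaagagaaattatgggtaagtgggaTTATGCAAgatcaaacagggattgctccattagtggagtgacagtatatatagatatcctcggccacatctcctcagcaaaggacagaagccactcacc
Lcn2, chr2:32387740-32387989, minus strand: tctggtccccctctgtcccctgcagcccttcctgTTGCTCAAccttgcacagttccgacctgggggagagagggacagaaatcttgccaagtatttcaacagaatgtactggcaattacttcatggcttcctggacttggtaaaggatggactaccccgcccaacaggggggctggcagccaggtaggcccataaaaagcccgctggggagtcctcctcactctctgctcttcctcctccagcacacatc
Alb, chr5:90460620-90460869, plus strand: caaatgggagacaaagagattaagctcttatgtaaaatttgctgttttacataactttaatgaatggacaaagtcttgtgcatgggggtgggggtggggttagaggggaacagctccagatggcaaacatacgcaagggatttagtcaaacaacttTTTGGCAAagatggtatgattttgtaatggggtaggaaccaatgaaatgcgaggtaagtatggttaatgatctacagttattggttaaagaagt
The Orm2 and Orm3 stretches were identical at 218 positions of their alignment, or 85.5%, and both carried the C/EBP match in the same surroundings.

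**Figure D1:**
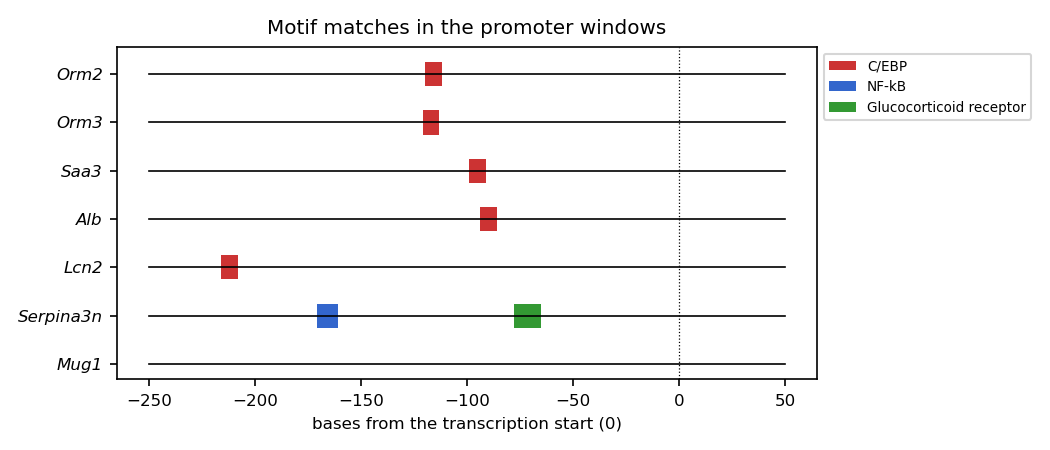
Motif matches in the promoter windows of 7 acute phase genes, in bases from the transcription start (0), with coloured boxes for the C/EBP, NF-kB and glucocorticoid receptor motifs. The C/EBP motif is in 5 of 7 windows, and Serpina3n alone among the 7 holds the other 2 motifs.

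Read over all members, mean levels were lower in the knockout for 10 of 10 genes in each tissue, against 52.6% of all genes in white and 60.1% in brown fat. In white fat all 4 knockout arrays lay below all 4 control arrays for 7 of 10 genes (all but Saa3, Lcn2 and Mug1), as they did for 18.5% of all genes tested. In brown fat this was so for 7 of 10 (all but Saa3, Hp and Lcn2), against 16.6% of all genes. Orm1, Orm2, Orm3, Serpina3n, Serpina3k and Alb lay lower without overlap in both tissues, against 6.94% of all genes. For Serpina3k the brown order is one among values that were not well above background on control array 1 and on all knockout arrays. The reverse order, with all knockout arrays above all control arrays, was seen in 0 of 10 members, against 10.9% of all genes in white and 11.4% in brown fat. The rule chose the members on these differences, so nothing is read from the shares. The median log2 difference over the members was -1.82 in white and -1.21 in brown fat, where the medians over all genes were -0.037 and -0.12. Limma called 0 of 15467 genes in either knockout comparison at an adjusted p below 0.05, 0% of those tested, with 1545 genes in white and 1087 in brown fat at an unadjusted p below 0.05. With the 16 arrays as separate samples and the slide as a block it called 196 in white and 1 in brown fat. Without the white knockout sample on array 1 it called 1654 genes in white fat, and without the one on arrays 2, 3 and 4 it called 123.

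The knockout samples differed among themselves. In white fat the sample on arrays 2, 3 and 4 had a median of -2.60 against the control mean and 10 of 10 genes below it, and the sample on array 1 a median of -1.04 with 8 of 10 below. In brown fat the corresponding medians were -1.17 with 10 of 10 below and -1.61 with 9 of 10 below. The array 1 samples were the exceptions for Saa3 and Lcn2 in white fat and for Lcn2 in brown fat.

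**Figure D2:**
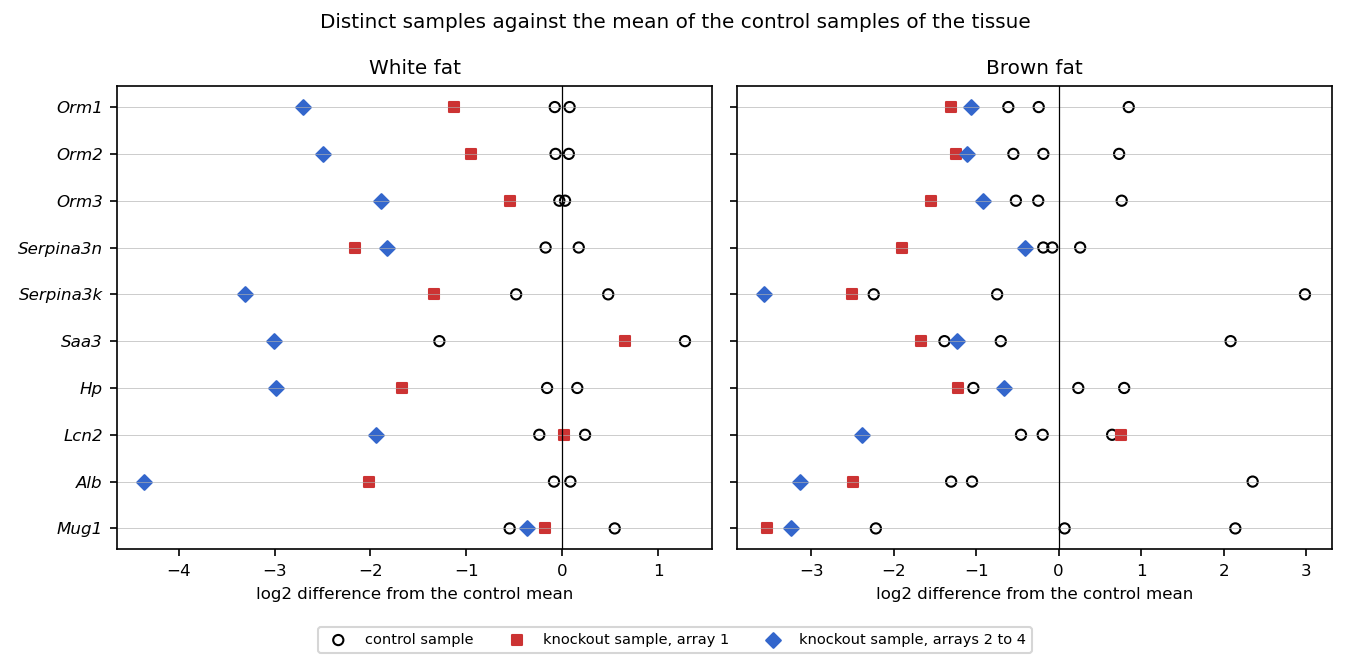
Log2 difference of each distinct sample from the mean of the control samples of its tissue, with open circles for control samples, red squares for the knockout sample on array 1 and blue diamonds for the one on arrays 2 to 4. In white fat the blue diamonds lie far left of 0 for every gene except Mug1, and in brown fat the rightmost open circle of several genes is control array 4.

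The orosomucoids Orm1, Orm2 and Orm3 encode alpha-1-acid glycoproteins, lipocalin-fold plasma proteins that bind basic and neutral drugs and lipids. Their sequences are alike, so a probe of one may also read the others, and the 3 are not independent. Orm1 lay at 2.91 and 3.06 in the white control samples and at 1.85 and 0.28 in the white knockout samples. In brown fat it lay at 1.53, 1.16 and 2.62 in the controls and at 0.47 and 0.71 in the knockouts. The white controls were thus the highest and tightest group, the brown controls and white knockouts overlapped, and every knockout array was below every control array of its tissue. The difference was -1.92 ± 0.61 (SE) in white fat, a 3.78-fold lower level, and -1.18 ± 0.56 in brown fat, 2.27-fold lower.

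Orm2 followed the same order. It lay at 3.27 and 3.41 in white controls, at 2.38 and 0.84 in white knockouts, at 1.95, 1.59 and 2.87 in brown controls, and at 0.90 and 1.03 in brown knockouts. The knockout difference was -1.73 ± 0.57 (SE) in white and -1.18 ± 0.52 in brown fat. Orm3 lay at 0.26 and 0.32 in white controls and at -0.25 and -1.60 in white knockouts, and at -0.52, -0.79 and 0.49 in brown controls against -1.82 and -1.19 in brown knockouts. Its differences were -1.22 ± 0.56 and -1.23 ± 0.51. In white fat the knockout sample on array 1 lay between the controls and the other knockout sample for all 3 genes, and without the sample on arrays 2, 3 and 4 the white differences were -1.13 for Orm1, -0.96 for Orm2 and -0.54 for Orm3.

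Brown control array 4 was the highest brown sample for the 3 orosomucoids. Without it, the brown knockout differences were -0.76 for Orm1, -0.81 for Orm2 and -0.85 for Orm3. The knockout arrays lay below the remaining control arrays for each of them.

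**Figure D3:**
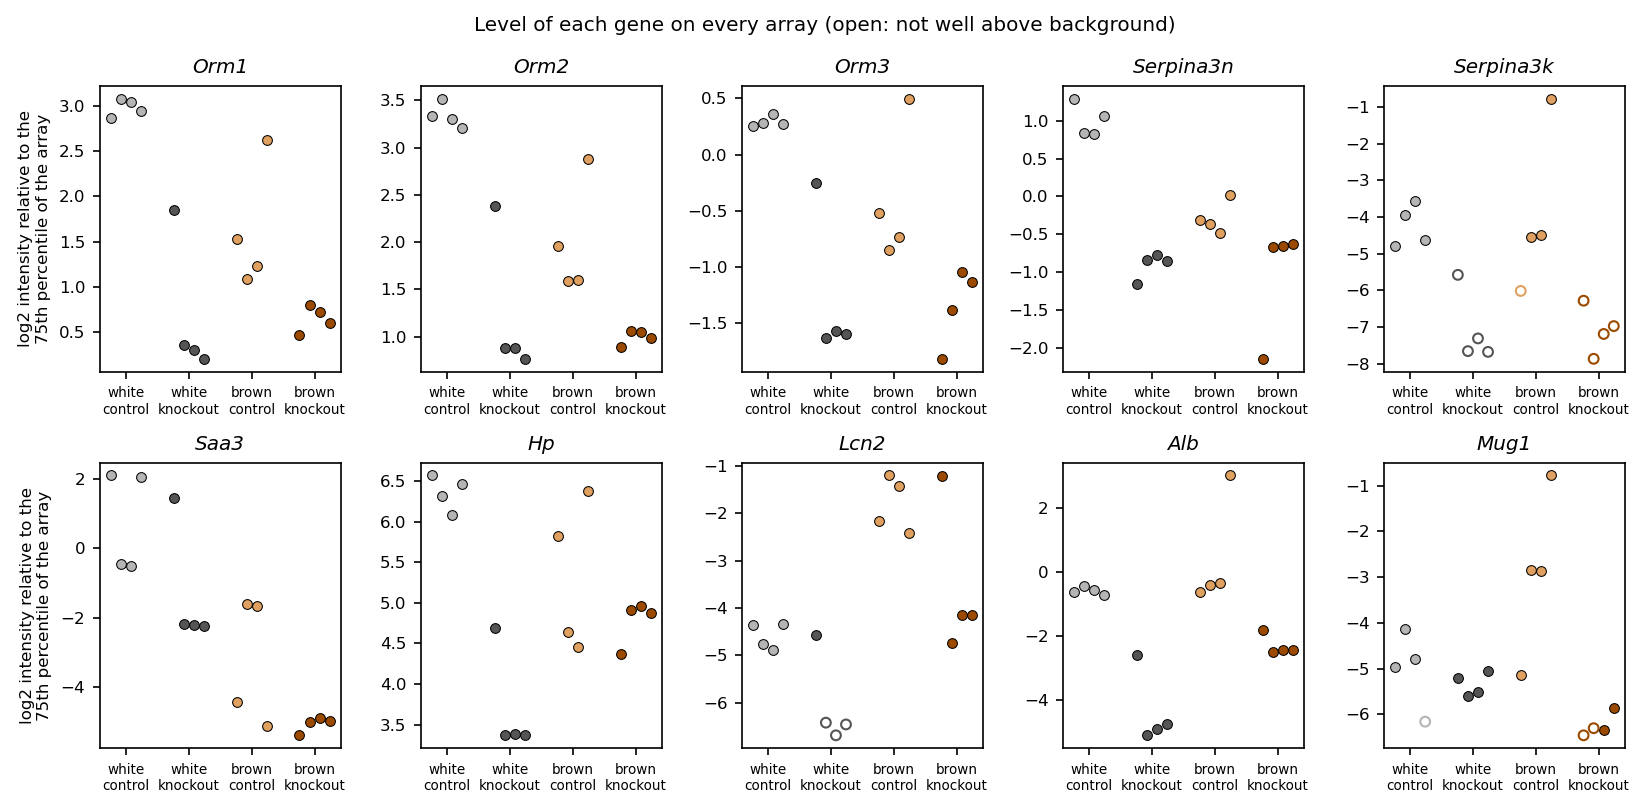
Level of the 10 acute phase genes on all 16 arrays, as log2 intensity relative to the 75th percentile of the array, grouped by tissue and genotype with arrays 1 to 4 from left to right in each group. Open circles were not well above background, which holds for all 8 knockout arrays of Serpina3k, and the vertical scale differs between genes.

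Hp encodes haptoglobin, which binds free haemoglobin in plasma. It lay at 6.52 and 6.20 in white controls and at 4.68 and 3.38 in white knockouts, a difference of -2.33 ± 0.66 (SE), or 5.03-fold. In brown fat the controls lay at 5.82, 4.55 and 6.38 and the knockouts at 4.37 and 4.92. The white groups were far apart, while in brown fat the knockout arrays reached into the range of the controls, whose arrays 2 and 3 were low. The brown difference was -0.94 ± 0.60, and -0.54 without brown control array 4. Without control arrays 2 and 3 it was -1.46.

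Serpina3n encodes a secreted inhibitor of serine proteases of the antichymotrypsin family, and its promoter was the only one of the 7 with the glucocorticoid receptor motif. It lay at 1.18 and 0.83 in white controls and at -1.16 and -0.82 in white knockouts. This was the member with the closest pair of white knockout samples after Mug1, and the difference was -1.99 ± 0.47 (SE), or 3.98-fold. In brown fat it lay at -0.32, -0.43 and 0.020 in controls and at -2.15 and -0.65 in knockouts. The brown knockout sample on array 1 was far below the other, whose 3 arrays lay just under the lowest control array. The brown difference was -1.16 ± 0.43, and -1.03 without brown control array 4. It was -0.41 without knockout array 1 and -1.90 without the other knockout sample.

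Serpina3k, a neighbouring gene of the same family made chiefly by the liver, was dim. It was well above background on 4 of 4 white control and 3 of 4 brown control arrays and on 0 of 8 knockout arrays. The knockout level thus has only an approximate upper bound. That bound takes, on each array, whichever is higher of the signal of the gene and the dimmest signal that was still well above background. White controls lay at -4.71 and -3.75 and white knockouts at -5.58 and -7.54, a ratio of 2.64 between the controls and this bound. Brown controls lay at -6.01, -4.52 and -0.79 and brown knockouts at -6.28 and -7.34, a ratio of 5.54 by the same calculation. Without brown control array 4 it was 1.97-fold. The dimmest passing signal of an array need not be the limit for this probe, so the white ratio is not a strict bound. Both brown ratios also take control array 1, itself not well above background, at its measured signal, so neither is strict. With the normexp background, which lifts dim spots, the fitted white difference was -0.32 in place of -2.33 and the brown one -1.73 in place of -3.04. Genes of the Serpina3 family are close copies, so which of them a probe reads is uncertain.

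Alb encodes albumin, the main carrier protein of plasma and a negative acute phase protein. It lay at -0.67 and -0.50 in white controls and at -2.60 and -4.95 in white knockouts. The difference was -3.19 ± 1.28 (SE), or 9.11-fold. It was -2.04 with the normexp background and -2.02 without the knockout sample on arrays 2, 3 and 4. In brown fat the controls lay at -0.62, -0.37 and 3.03 and the knockouts at -1.82 and -2.46. White control arrays and brown control arrays 1 to 3 had like levels, from -0.72 to -0.33, and brown control array 4 lay far above them. The brown difference was -2.82 ± 1.17, or 7.06-fold. Without brown control array 4 it was -1.64, or 3.12-fold, and the knockout arrays still lay below all control arrays.

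Mug1 encodes murinoglobulin, a broad protease inhibitor related to alpha-2-macroglobulin. In white fat it was dim in both genotypes, at -5.56 and -4.47 in controls and at -5.20 and -5.39 in knockouts. The groups overlapped and the difference was -0.28 ± 1.21 (SE), which turned to 0.044 with the normexp background and to 0.083 within the slide that held arrays of both groups. Brown controls lay at -5.14, -2.85 and -0.78 and brown knockouts at -6.46 and -6.17. The brown difference was -3.39 ± 1.11, or 10.5-fold, -1.91 with the normexp background and -2.32 without brown control array 4, with only 2 of 4 knockout arrays well above background. A probe labelled Mug2, the near-identical neighbour, followed Mug1 over the 16 arrays (r = 0.936, a description over arrays that share samples), and the other Mug2 probe did not (r = 0.11), so the Mug1 values may hold signal from Mug2.

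Saa3 encodes serum amyloid A3, an apolipoprotein of high-density lipoprotein made outside the liver by macrophages and fat. In white fat and in brown controls it varied more within groups than between genotypes. White controls lay at 2.08 and -0.49 and white knockouts at 1.45 and -2.21, with overlapping arrays and a difference of -1.18 ± 1.55 (SE). Brown controls lay at -4.43, -1.64 and -5.11 and brown knockouts at -5.39 and -4.96, a difference of -1.45 ± 1.42, or -2.14 without brown control array 4, which was the lowest brown control, or -0.41 without control arrays 2 and 3, which were the highest. In white fat, leaving out the knockout sample on arrays 2, 3 and 4 gave 0.65 and leaving out the controls on arrays 1 and 4 gave 0.10, whereas counting every array as a sample gave -2.09.

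Lcn2 encodes lipocalin 2, which withholds iron from bacteria by binding their siderophores and is abundant in neutrophil granules as well as in fat. White controls lay at -4.35 and -4.82 and white knockouts at -4.57 and -6.53, where only array 1 was well above background. Brown controls lay at -2.16, -1.32 and -2.42 and brown knockouts at -1.21 and -4.35, so the knockout sample on array 1 was above every control sample and the other below all of them. The difference was -0.96 ± 1.05 (SE) in white fat, and it was -0.81 ± 0.96 in brown fat. Without the knockout sample on arrays 2, 3 and 4 they were 0.018 and 0.75, and with the normexp background the white difference was -0.097. Without knockout array 1 they were -1.94 and -2.38. Without brown control array 4 the brown difference was -1.04, without control arrays 2 and 3 it was -0.49, and counting every array as a sample gave -1.76.

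The rule did not use differences between tissues, so brown and white fat were compared by limma over all genes. In controls limma called 778 of 15467 genes (5.03%), 604 higher (3.91%) and 174 lower (1.12%) in brown fat, and 0 of the 10 members. With the authors' unscaled values the split was 479 higher and 458 lower. Of the members, 3 had an unadjusted p below 0.05, as did 3518 of all genes. Saa3 was at -4.52 ± 1.42 (SE) in brown against white controls (limma adjusted p = 0.125), with all 4 brown arrays below all 4 white arrays. Serpina3n was at -1.24 ± 0.43 (limma adjusted p = 0.150), again with no overlap. Lcn2 was at 2.62 ± 0.96 (limma adjusted p = 0.169), with all brown arrays above the white. The values were -3.83 for Saa3, -1.37 for Serpina3n and 2.85 for Lcn2 without brown control array 4. No slide held brown and white arrays of the same genotype, so a slide block compares the tissues only through arrays of the other genotype. With the 16 arrays as separate samples and this block, Saa3 was at -1.93 and Lcn2 at 4.01. With the normexp background they were at -3.04 and 1.58, and none passed the threshold. Counted as 16 separate samples, the arrays gave 6 members past it (Orm1, Orm2, Serpina3n, Saa3, Lcn2 and Mug1), as they did for 39.2% of all genes.

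The remaining members had these control differences, none past the threshold. Orm1 was at -1.21 ± 0.56 (SE) and Orm2 at -1.20 ± 0.52, both without overlap between arrays, and Orm3 at -0.56 ± 0.51 with overlap. Hp was at -0.78 ± 0.60. These 4 values were -1.64, -1.57, -0.94 and -1.18 without brown control array 4, and without control arrays 2 and 3 Orm3 was at -0.30 and Hp at -0.26. Alb was at 1.27 ± 1.17 and Mug1 at 2.10 ± 1.11, values that fell to 0.092 and 1.02 without brown control array 4. Serpina3k was at 0.46 ± 1.44 and turned to -1.03 without that array. In all, 4 members lay lower in brown controls with no overlap and 1 lay higher, where 26.0% and 22.2% of all genes did.

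**Figure D4:**
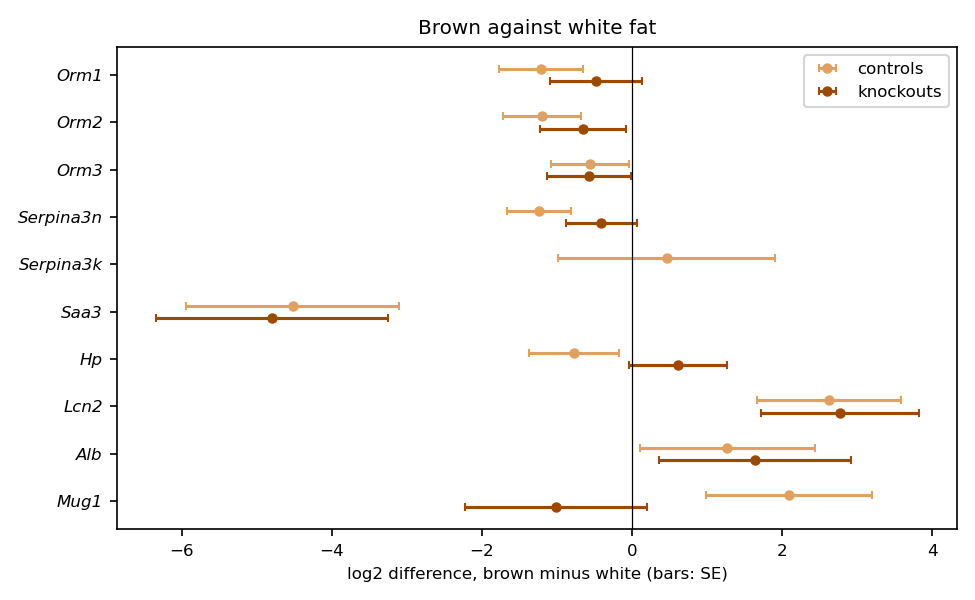
Log2 difference of the acute phase genes between brown and white fat (brown minus white), in control and in knockout samples, with bars for the standard error of the limma fit. Saa3 lies at -4.52 and -4.80 and Lcn2 at 2.62 and 2.77 in both genotypes, the other genes lie closer to 0, and Serpina3k has no value in knockouts because it was not well above background in either tissue.

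In knockouts limma called 233 of 15467 genes (1.51%) between the tissues, 200 higher (1.29%) and 33 lower (0.213%) in brown fat, and again 0 of the members. Saa3 was at -4.80 ± 1.55 (SE; limma adjusted p = 0.229) and Lcn2 at 2.77 ± 1.05 (limma adjusted p = 0.289), values close in size to those in controls, from other arrays. Saa3 arrays did not overlap between tissues, and Lcn2 arrays did. With the 16 arrays as separate samples and the slide as a block the differences were -2.61 and 3.84. They were -3.09 and 1.10 with the normexp background. Counted as 16 separate samples, Saa3, Lcn2 and Alb passed, as did 25.6% of all genes. Orm1 was at -0.48 ± 0.61, Orm2 at -0.65 ± 0.57, Orm3 at -0.57 ± 0.56, Serpina3n at -0.41 ± 0.47, Hp at 0.61 ± 0.66, Alb at 1.64 ± 1.28 and Mug1 at -1.02 ± 1.21. Serpina3k was not well above background in either tissue. Saa3 and Mug1 lay lower in brown knockouts with no overlap and Alb higher, where 13.3% and 13.1% of all genes did. Whether a tissue difference itself differed between genotypes was not tested.

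Macrophages and neutrophils are known sources of Saa3 and Lcn2, so their markers are given beside the tissue differences. Macrophage markers summed to 5.11 to 6.51 in white and to 3.33 to 5.22 in brown controls, with 8 of 8 lower on average and 0 past the threshold. Over all genes, 55.2% had lower means in brown than in white controls. Of 10 neutrophil markers, 6 could be tested, and they summed to -0.29 to 0.23 in white and to 1.86 to 2.92 in brown controls. Of these, 5 had higher means in brown controls and 1, Csf3r, a lower mean (-1.35 ± 0.69 SE). Only Ltf, which encodes the granule protein lactoferrin, passed (7.16 ± 0.78 SE, limma adjusted p = 0.00343), while Ngp, Camp, Elane and Retnlg did not pass the filter on dim probes. Ltf passed that filter only through the brown groups, in which it was brighter, so its call is not independent of the filter. With no filter on dim probes its limma adjusted p was 0.00446. On brown knockout arrays the neutrophil sum was 1.20 to 1.37, within the -1.25 to 1.54 of white knockout arrays. In knockouts 4 of the 6 markers had lower means in brown fat and 2 had higher ones, where 52.9% of all genes had lower means. The part of these cells, and of the skeletal muscle in the brown samples, was not tested.

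Brown control array 4 held the highest brown control level of 8 of the 10 members, Saa3 and Lcn2 being the exceptions. It also had the highest brown control level of 9 of 13 measured hepatocyte markers. The share of all genes that were highest on this array was not counted, so nothing is read from these counts alone. Of 9836 bright probes, 539 to 780 differed more than 2-fold between this array and another brown control array. Ahsg, the fetuin A gene, lay at 2.41 on brown control array 4 and between -4.65 and -0.35 on the other brown control arrays. Ambp, which encodes the precursor of alpha-1-microglobulin, lay at 1.18 against -6.63 to -2.08, and Apoa2 at 0.27 against -5.69 to -4.13. The clotting gene F2 lay at 0.23 against -3.20 to -2.19. Tat, Tdo2, Cyp2e1 and Hnf4a were not highest there.

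Cyp2e1 is bright in fat, so the hepatocyte signal was summed without it. The sum of the other 12 markers was 4.01 on brown control array 4 and 0.97 to 1.53 on the other brown control arrays. It was -0.13 to 1.03 on white control, -0.54 to -0.48 on white knockout and -0.028 to 1.20 on brown knockout arrays. In white fat this sum did not overlap between genotypes, while 18.5% of all single genes lay lower in the knockout without overlap. With Cyp2e1 the sums overlapped, at 3.80 to 4.87 on white control and 1.38 to 5.24 on white knockout arrays. The median level of the 12 markers also overlapped, at -5.23 to -2.88 and -5.20 to -4.99. The hepatocyte markers, Cyp2e1 included, had lower means in the knockout for 10 of 13 in white fat (median -1.11) and 13 of 13 in brown fat (median -0.75). Of these, 0 passed the limma threshold and 0 had an unadjusted p below 0.05 in either tissue. The brown count was 8 of 13 without brown control array 4 (median -0.58), and Apoa2, Fgg, F2, Tat and Hpd had higher means in the knockout. Of all genes, 52.6% had lower means in the white and 60.1% in the brown knockout. Apoh and Fgg were not well above background on any white knockout array. The part of liver RNA, or of the same transcripts made by other cells, in the differences of Alb, Serpina3k, Mug1 and the other members was not tested. Without brown control array 4 the median brown knockout difference of the members was -1.04 (all genes -0.086).

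**Figure D5:**
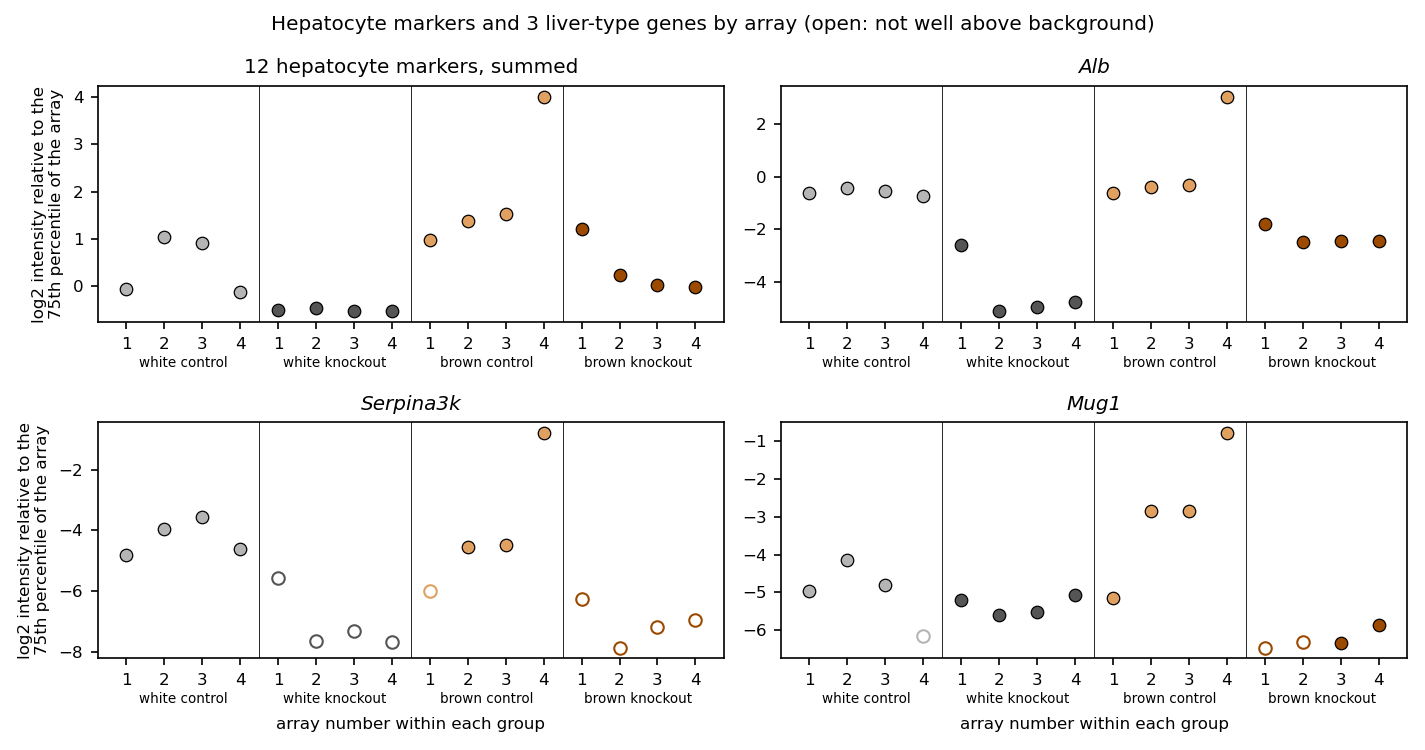
Summed level of 12 hepatocyte markers and levels of Alb, Serpina3k and Mug1 on arrays 1 to 4 of each group, as log2 intensity relative to the 75th percentile of the array, on separate scales. Brown control array 4 is the highest array in all 4 panels, at 4.01 for the summed markers and 3.03 for Alb, and open circles were not well above background.

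Of 49 other acute phase genes listed, 33 could be tested. In the knockout comparisons 0 of 33 passed by limma in either tissue, with 5 in each at an unadjusted p below 0.05. The 30 positive acute phase genes had lower means in 24 in white fat (median -0.40) and in 22 in brown fat (median -0.37), and the 3 negative ones in 3 of 3 in both. Lower means were also found for 52.6% of all genes in white and 60.1% in brown fat. Lbp, which hands bacterial lipopolysaccharide to its receptor, was at -2.13 ± 0.45 (SE) in white fat and at -1.39 ± 0.41 in brown fat. Rbp4, the plasma carrier of retinol and a known adipokine, was at -1.47 ± 0.45 and -1.06 ± 0.41. Agt, the angiotensinogen gene, was at -2.24 ± 0.77 in white fat and Serpina3j at -1.33 ± 0.34. In brown fat Saa2 was at -1.33 ± 0.38, and Serpina3b, well above background on 1 of 4 knockout arrays, was at -1.37 ± 0.28. Saa2 and Serpina3b passed the filter on dim probes only through the brown controls, the higher group here. Their brown differences, also counted above, are thus not independent of the filter. Without brown control array 4, 20 of the 30 positive genes had lower means in brown fat and 3 of the 3 negative ones, with Lbp at -1.20, Rbp4 at -0.86, Saa2 at -1.32 and Serpina3b at -1.44.

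Between tissues of control mice, 1 of the 33 was called higher and 1 lower in brown against white, as were 3.91% and 1.12% of all genes. Saa2, a serum amyloid of the liver, was higher in brown (1.92 ± 0.38 SE, limma adjusted p = 0.0365). Saa2 passed the filter on dim probes only through the brown controls, in which it was brighter, so this call is not independent of the filter. With no filter on dim probes its limma adjusted p was 0.0478. Its levels were -4.22 to -3.20 against -6.67 to -4.94 in white, where 3 of 4 arrays were well above background. C3, the central complement component, was lower (-1.46 ± 0.28, limma adjusted p = 0.0348), with levels of 6.24 to 7.11 against 7.94 to 8.55. Leaving out 1 sample at a time, the limma adjusted p ranged from 0.0232 to 0.279 for Saa2 and from 0.0301 to 0.286 for C3. Saa2 did not pass without any one of the control samples or of the brown knockout samples, nor did C3, except that C3 passed without brown control array 4. With the 16 arrays as separate samples and the slide as a block neither passed (limma adjusted p = 0.129 and 0.0677). Saa2 was at 1.03 with the normexp background (limma adjusted p = 0.161) and did not pass. Nor did it pass with quantile normalization (limma adjusted p = 0.0582) or the authors' unscaled values (0.0630), while C3 passed in each of these settings. In knockouts 0 of 33 passed. The smallest p there belonged to Fgg, not well above background in white and at -1.97 to 0.0075 in brown knockouts, Ptx3 (1.86 ± 0.50), C3 (-1.02 ± 0.31) and Serping1 (-0.94 ± 0.30).

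The signalling genes upstream were measured for 16 of 19, and 0 passed by limma in any of the 4 comparisons, with 1 in white knockout, 0 in brown knockout and 4 in each comparison of tissues at an unadjusted p below 0.05. In white fat their knockout differences had a median of 0.20 and in brown fat of 0.15, or -0.034 without brown control array 4. Stat3, which carries the interleukin 6 signal, was at 0.88 ± 0.35 (SE) in white fat and at 0.12 ± 0.32 in brown fat. The C/EBP genes were at -1.03 ± 0.61 and -0.13 ± 0.55 for Cebpa, at -0.65 ± 0.36 and -0.56 ± 0.33 for Cebpb, and at 0.22 ± 0.27 and 0.28 ± 0.25 for Cebpd. The feedback inhibitor Socs3 was at 0.58 ± 0.88 and 0.21 ± 0.80.

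The cytokine genes Tnf (0.55 ± 1.08 SE in white and 1.47 ± 0.99 in brown fat) and Il1b (0.55 ± 1.06 and -0.018 ± 0.97) had wide errors. The receptors Il6ra, Il6st, Il1r1, Osmr and Lifr lay between -0.46 and 0.40 in white and between -0.29 and 0.52 in brown fat. Jak1 was at 0.39 ± 0.50 and 0.41 ± 0.45, Rela at 0.13 ± 0.27 and 0.18 ± 0.24, and Nfkbiz at 0.47 ± 0.37 and 0.72 ± 0.34. Hnf4a, a liver transcription factor, was at -0.79 ± 0.65 and -0.75 ± 0.59.

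Receptors and binders of the proteins were measured for 8 of 8 genes. In white fat 8 of 8 had lower means in the knockout (median -0.53) and in brown fat 6 of 8 (median -0.33), with 0 past the limma threshold and 1 and 0 at an unadjusted p below 0.05. The share of all genes with lower means was 52.6% in white and 60.1% in brown fat. Cd163, the macrophage receptor for haptoglobin with haemoglobin, was at -0.93 ± 0.42 (SE) and -0.51 ± 0.38. Slc22a17, described as a receptor for lipocalin 2, was at -0.46 ± 0.46 and -0.45 ± 0.42. Lrp2, or megalin, which takes up lipocalin 2 and other small plasma proteins, was lower in brown than in white controls (-3.79 ± 0.70, limma adjusted p = 0.0287), where 1 of 4 brown arrays was well above background. It did not pass without any one of the control samples (limma adjusted p from 0.0769 to 0.234), with the slide as a block (0.203) or with the normexp background (-0.98, limma adjusted p = 0.28). The other 7 receptors and binders had lower means in brown controls and did not pass, where 55.2% of all genes had lower means.

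Correlations between members were taken over the 9 samples after the mean of each tissue was removed. They describe 9 points that include the genotype difference and brown control array 4. Orm1, Orm2, Orm3, Hp and Alb had Pearson's r between 0.859 and 0.998 over their 10 pairs. Saa3 and Lcn2 had r between 0.277 and 0.446 with these 5, and 0.589 with each other. Serpina3k had r of 0.960 with Alb, 0.871 with Mug1 and 0.693 with Hp, and Serpina3n 0.702 with Alb and 0.820 with Hp. The genes outside the members closest to Orm1 were Fam78b (r = 0.996), Notch4 (0.994), Robo4 (0.994), Aldh1l1 (0.988) and Mogat1 (0.988). Those closest to Alb were Ugt3a1 (0.984), Gpx4 (0.983), Txnrd2 (0.983), Sirt5 (0.980) and Rhot1 (0.980). None of these 10 was on the hepatocyte list, but only 13 genes of that list were among the 15467 tested, so nothing is read from this.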

How the data were processed

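Total RNA, purified with Qiagen RNeasy, was labelled with Cy3, per the labels. Per the file headers, the 1-colour Agilent arrays were read by Agilent Feature Extraction 12.0.0.7, which subtracted background and removed spatial trends. The deposited scanner files hold intensity on a linear scale, unscaled between arrays. The authors' value table equalled the mean processed intensity for 41174 of 41174 probes on every array, to within a relative tolerance of 0.0001.

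The levels used here are the log2 of processed intensity after subtraction of the array's 75th percentile, taken over 43379 non-control spots, of which 0 were saturated. Outlier spots were left out and spots of a probe averaged. RefSeq accessions named 28223 of 41174 probes (GRCm38.p6), and 12951 stayed unnamed. A probe was kept if 1 or more groups had it well above background on all 4 arrays, and a gene was its brightest kept probe. The number of arrays limits the precision.

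Arrays of a group were merged where their difference over its stated error had a median absolute deviation below 1, across 9836 bright probes. This held for 9 pairs (0.372 to 0.655) and not for 15 (1.10 to 4.26). The white control pairs counted apart lay close to the limit, at 1.10 to 1.25, so these arrays as 1 sample were an alternative chosen after seeing the data, as were the gene lists without brown control array 4 and the hepatocyte sum without Cyp2e1.

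The comparisons used limma 3.58.1 (R 4.3.3), with 4 group means, 5 residual degrees of freedom and Benjamini-Hochberg adjustment at 0.05. The fit was tested on simulated data. All fits with the slide as a block counted the 16 arrays as separate samples. The normexp alternative (offset 50) used median spot signals, in place of the planned mean signals. Members, lists and the rule for named genes were chosen with earlier results of these data known. The rule took all members, other acute phase genes past the threshold between tissues or otherwise with the lowest p, all measured upstream regulators, and the 5 genes most like Orm1 and Alb. Same-numbered arrays of different groups were not treated as pairs.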

Additional observations from a re-analysis of the deposited data

How the results depend on the processing

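Counting 16 arrays as separate samples called 6903 genes in white knockout, 4719 in brown knockout, 6065 between tissues of controls and 3955 of knockouts, in place of 0, 0, 778 and 233. With the replicate block these counts were 7095, 4960, 6162 and 3882. Separate arrays called 6 of 10 members between tissues of controls and 3 of 9 of knockouts. The block called 7 of 10 members between tissues of controls (39.8% of all genes) and 2 of 9 of knockouts (25.1%). For pairing, each array was taken as its deviation from its group mean, and these deviations were correlated over genes. Same-numbered control arrays of the 2 tissues correlated at -0.13 to 0.18 in this way, so the numbers were not taken as pairs. Knockout arrays correlated at 0.30 to 0.57, though arrays 2, 3 and 4 are 1 sample there. The deviations of white knockout array 1 correlated at 0.57 with those of brown knockout array 1 and at no more than -0.39 with those of the other brown knockout arrays. Deviations within a group cancel out, so a positive value with array 1 forces negative ones with its near-identical partners. Nothing is read from this contrast. Whether the 2 tissues came from the same animals was not tested, and the main fit did not pair them. With the 16 arrays counted separately and the slide as a block, limma called 196 genes in white and 1 in brown knockout. With the white controls as 1 sample it called 170 between tissues of controls and 142 of knockouts. Leaving out 1 sample at a time gave 0 to 1654 genes in white knockout, 0 to 1 in brown knockout, 178 to 1736 between tissues of controls and 112 to 1011 of knockouts. A sample left alone in its group is assumed to vary like the others.

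Leaving out 1 sample at a time, Serpina3n was called between tissues of controls without either brown knockout sample, and no other member was. The knockout difference ranged from -3.0 to 0.65 for Saa3, -1.94 to 0.018 for Lcn2 and -0.82 to 0.27 for Mug1 in white fat, and from -2.38 to 0.75 for Lcn2 in brown fat. The difference between tissues ranged from -1.03 to 1.58 for Serpina3k in controls, and in knockouts from -1.26 to 0.31 for Orm1, -1.42 to 0.12 for Orm2, -1.25 to 0.098 for Orm3, -1.15 to 0.34 for Serpina3n and -0.044 to 1.26 for Hp. The white knockout difference of Mug1 was 0.044 with normexp, 0.083 with the slide as a block and 0.083 within the shared slide. Serpina3k between tissues of controls was -0.31 with the slide as a block. The cause of these changes was not tested, beyond the number of samples that each setting counts. Serpina3k, Lcn2 and Mug1 lay near background, which limits their values.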
